A study of Mus musculus with 18 samples.

Results

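The response of embryonic neocortical neurons to EPIREGULIN was read from 6 of the 18 libraries of an RNA sequencing study of mouse brain: 3 of neurons from treated tissue and 3 of neurons from control tissue. The libraries were chosen by their labels alone, as all those of neurons, and the treated and control library with the same replicate number were taken as a pair. Every gene that passed a filter on low counts was tested, and the neurons' response was set against that of radial glia and intermediate progenitors in the same study.

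The tissue was the neocortex of wild-type C57BL/6J embryos at E14.5, and both groups went through the same culture. Brain hemispheres rotated in medium for 24 h (a culture named HERO in the labels), with 50 ng/mL of human recombinant EPIREGULIN in the treated group (Epi) and none in the control group (Ctl). Radial glia, intermediate progenitors and neurons were isolated only afterwards, so the neurons met the ligand inside intact tissue, next to every other cell of the hemisphere. The labels do not say by which markers or sort the populations were separated. The labels call the 3 libraries of a group biological replicates. They do not say how many embryos went into one.

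EPIREGULIN is a secreted growth factor of the EGF family. It binds EGFR and ERBB4, which are receptor tyrosine kinases, and these switch on the RAS, RAF, MEK and ERK cascade as well as PI3K and AKT. ERK signalling is commonly seen at the RNA level through genes it induces within hours, among them ETS factors of the Etv group and its own inhibitors of the Dusp, Spry and Spred families. In the embryonic cortex ERBB4 is known chiefly from inhibitory neurons, which migrate into the cortical wall from the ventral forebrain, while EGFR is known from progenitors.

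The neuron libraries held 19.5 to 25.3 M counts and 43323 to 45623 detected genes. All 26 neuron markers on the list were measured, and their summed level was 15829 to 16954 CPM (each gene's counts over the library's total, per 1e6 and scaled by TMM factors) in the 6 neuron libraries against 722 to 758 in control radial glia. Radial glia markers ran the other way, at 709 to 933 CPM in neurons and 7096 to 8431 in control radial glia. Against control intermediate progenitors the neuron libraries stood apart in some markers and not in others. Eomes, the factor of intermediate progenitors, ran at 6.45 to 13.3 CPM in control neurons against 85.8 to 149 in control intermediate progenitors, and Neurod2 at 2119 to 2573 against 1375 to 1714. Map2 (659 to 712 against 791 to 962), Tbr1 (251 to 290 against 291 to 416) and Tubb3 (1674 to 2234 against 1912 to 2502) stood as high or higher in intermediate progenitors. Mef2c (45.3 to 120 against 412 to 476), Bcl11b (954 to 1244 against 1530.5 to 1765) and Reln (18.7 to 40.6 against 199 to 241) were clearly higher there. The 20 intermediate progenitor markers summed to 1047 to 1387 CPM in neurons against 641 to 712 in control radial glia.

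Transcripts of other cell types were present. Erythroid markers summed to 48.2 to 226 CPM in the neuron libraries and meningeal markers to 404 to 456, most of the latter from Igfbp2 and Fn1, which other cells make too. The summed endothelial markers stood at 15.9 to 25.1 CPM, microglial and macrophage markers at 24.6 to 41.4, mural markers at 10.7 to 15.6, choroid plexus markers at 11.4 to 25.4 and oligodendrocyte precursor markers at 5.54 to 7.80.

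No gene passed the test. With edgeR's quasi-likelihood test and the replicate number as a block, 0 of 29355 genes (0%) had a Benjamini-Hochberg adjusted p under 0.05, and the smallest adjusted p was 0.831. At an unadjusted p under 0.05 there were 1177 genes, of which 525 stood higher (1.79% of those tested) and 652 lower (2.22%). DESeq2 called 1 gene, with 753 at an unadjusted p under 0.05, and limma voom called 0, with 1307. The differences were small as well as unsupported. Among the 15250 genes whose mean log2 CPM reached 1 in neurons, the median size of the log2 fold change was 0.08, and 95% of genes lay within 0.32. For 98.5% of these genes the whole 95% interval stayed within 1 log2 unit of 0, and for 82.7% it stayed within a 1.5-fold change. Among the 10961 genes whose mean reached 3 these shares were 99.9% and 97.4%. Over all genes tested they were 59.6% and 43.1%, so the intervals of weakly expressed genes were the wider ones.

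**Figure D1:**
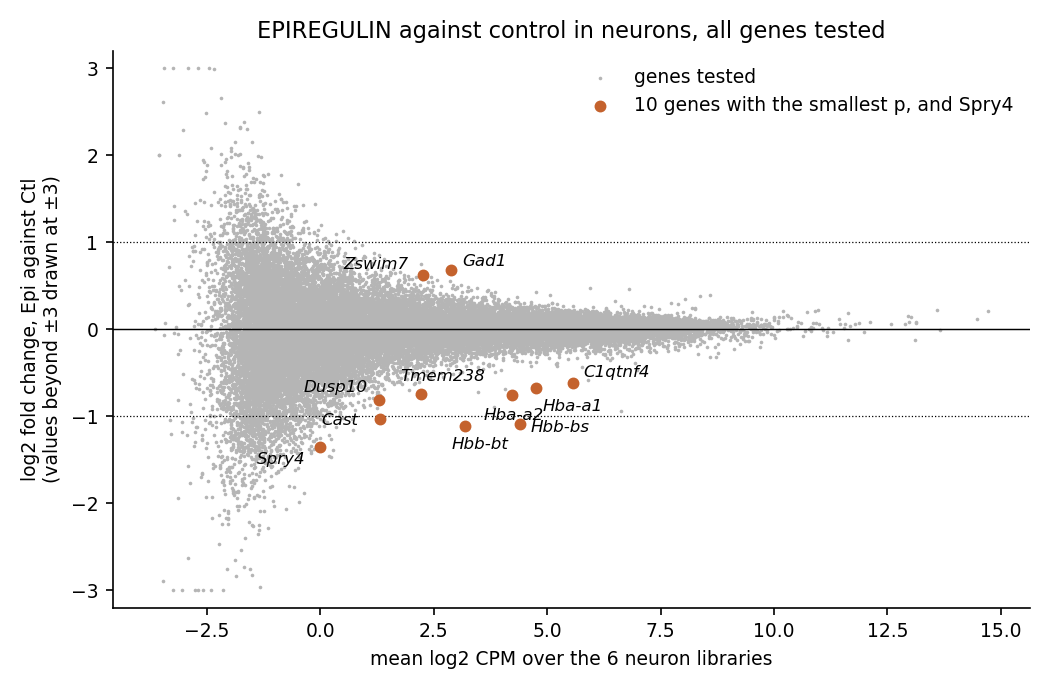
Each point is 1 of the 29355 genes tested, with its mean log2 CPM over the 6 neuron libraries on the x axis and its log2 fold change, Epi against Ctl, on the y axis; values beyond 3 are drawn at 3. The cloud closes around 0 as the level rises, and of the genes above a mean of 1 only Hbb-bt, Hbb-bs and Cast lie beyond 1 log2 unit, all of them lower.

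The libraries were told apart by their replicate number far more than by the treatment. Over 11210 genes with a mean log2 CPM above 3, the root mean square log2 difference between the Ctl and Epi library of the same number was 0.171 to 0.216 in the 3 pairs. Libraries that shared the treatment but not the number differed by 0.255 to 0.361, and libraries that shared neither by 0.244 to 0.369. The 3 pairs thus lay closer together than any other combination of libraries. Gene by gene, the means of the 3 numbers spanned more than 1 log2 unit for 385 of the 15250 genes above a mean of 1 (2.52%). The fitted Epi-Ctl difference exceeded 1 in size for 3. A range over 3 means and a single fitted difference are unlike measures, so these counts do not weigh number against treatment.

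**Figure D2:**
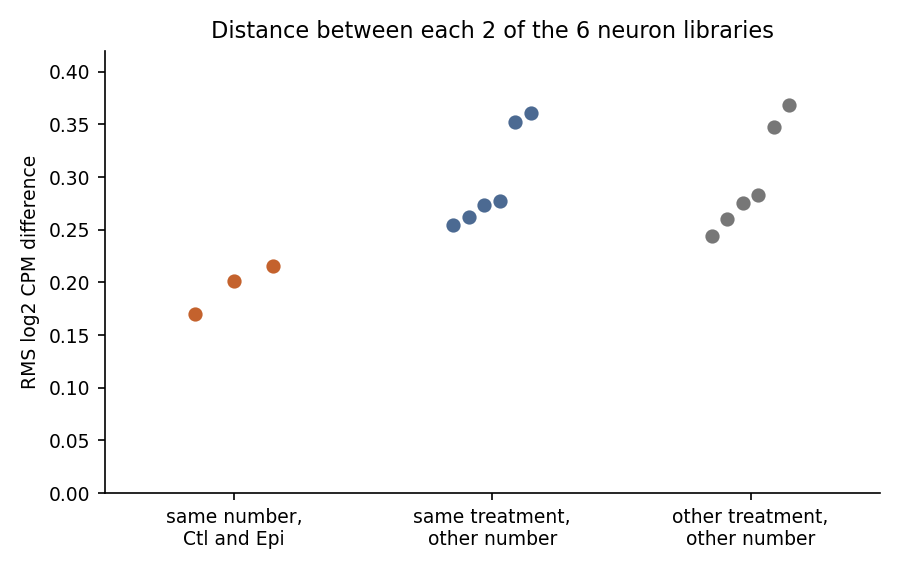
Root mean square difference of log2 CPM over 11210 genes (y axis) for each pairing of the 6 neuron libraries, grouped on the x axis by whether the libraries share the replicate number or the treatment. The 3 Ctl-Epi pairs of the same number sit between 0.171 and 0.216, under all 12 other points.

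Direction within pairs was counted next. All 3 paired differences were positive for 4025 genes (13.7%) and negative for 3739 (12.7%). The 3 Epi libraries lay above all 3 Ctl libraries for 915 genes (3.12%) and below them for 1099 (3.74%).

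The receptors of EPIREGULIN were measured in every neuron library. Egfr, the high-affinity receptor of several EGF-family ligands, stood at 2.66, 2.00 and 1.38 CPM in Ctl replicates 1 to 3 and at 1.72, 1.33 and 2.01 in Epi. Erbb4, the receptor shared with the neuregulins, stood at 6.82, 13.6 and 2.16 CPM in Ctl and at 7.0, 14.3 and 3.12 in Epi. The Epi and Ctl libraries overlapped for both genes, and for Erbb4 both groups followed the replicate number, with the second pair high and the third low. The log2 fold change of Egfr was -0.24 ± 0.27 (standard error from the fit of all 18 libraries, 95% interval -0.82 to 0.33). Its 3 paired differences were -0.61, -0.56 and 0.51. Erbb4 had 0.17 ± 0.17 (-0.19 to 0.53). Erbb2, the partner receptor without a ligand of its own, had 0.01 ± 0.17 (-0.34 to 0.36). Erbb3, a neuregulin receptor whose kinase is weak, had -0.12 ± 0.33 (-0.81 to 0.56).

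The mouse gene of the ligand itself, Ereg, was near the limit of detection, between 0.11 and 0.86 CPM in Ctl and between 0.13 and 0.48 in Epi. The added protein was of human origin and would not be counted. Of the 21 measured ERBB receptors, ligands and regulators, 0 were called in either direction and 0 reached an unadjusted p under 0.05; 14 estimates were positive and 7 negative, with a median log2 fold change of 0.03 against 0.01 over all genes tested. The smallest p was that of Nrg3, a neuregulin, at 10.1, 10.1 and 6.31 CPM in Ctl and 11.7, 9.07 and 11.1 in Epi. Its log2 fold change was 0.28 ± 0.15 (-0.05 to 0.60), its groups overlapped, and pair 2 ran opposite to the others. Ligands with more even levels included Egf, at 16.2 to 19.2 CPM in Ctl and 17.4 to 20.2 in Epi, and Nrg1, at 31.3 to 41.1 and 32.2 to 38.9. Errfi1, which blocks the EGFR kinase and is itself an EGFR target, ran from 13.2 to 14.0 CPM in Ctl and from 11.3 to 16.8 in Epi. Adam10 and Adam17, the sheddases that release EGF-family ligands, had log2 fold changes of 0.15 ± 0.10 and 0.04 ± 0.11.

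ERK target and feedback genes gave no called member either. Of 28 measured, 18 estimates were positive and 10 negative, with a median of 0.04; at an unadjusted p under 0.05, 1 stood higher and 2 lower, beside 1.79% and 2.22% of all genes. The smallest p on the list was that of Spry4, an intracellular inhibitor of receptor tyrosine kinase signalling that ERK induces in many cells. It stood at 1.31, 1.66 and 1.38 CPM in Ctl and at 0.53, 0.53 and 0.63 in Epi. The groups did not overlap, and Spry4 was lower with the ligand in all 3 pairs. Its log2 fold change was -1.36 ± 0.31 (-2.01 to -0.70), with an unadjusted p of 0.000265 and an adjusted p of 1.00 in edgeR's quasi-likelihood test. At about 1 CPM it fell under the level set for naming genes by rank, and it is given as a member of the fixed panel.

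The other inhibitors on the panel had positive estimates, with intervals that included 0. Spry2, its close relative, stood at 5.89, 5.04 and 4.37 CPM in Ctl and 6.03, 5.26 and 4.33 in Epi, a log2 fold change of 0.03 ± 0.16 (-0.31 to 0.36). Dusp6, the cytoplasmic ERK phosphatase, stood at 11.7, 13.9 and 6.05 CPM in Ctl and 12.7, 11.2 and 12.6 in Epi. Its groups overlapped, since only the third Ctl library lay below the Epi range, and its log2 fold change was 0.26 ± 0.18 (-0.11 to 0.63). The paired differences of Dusp6 were 0.12, -0.31 and 1.05, and without replicate 3 its estimate was -0.10. Spred1, a membrane-bound inhibitor of RAS signalling, was higher in all 3 pairs, at 28.1, 40.6 and 42.6 CPM in Ctl and 35, 44.9 and 44.0 in Epi, but the shift of 0.17 ± 0.09 (-0.03 to 0.36) was smaller than the spread over replicates. Etv4 and Etv5, the ETS factors, had -0.11 ± 0.29 (-0.72 to 0.50) and 0.15 ± 0.21 (-0.30 to 0.60). Off the panel, Spry1, Spred3 and Il17rd of the ERK list were lower in all 3 pairs, at -0.21, -0.23 and -0.33. Dusp2, Dusp4, Dusp5 and Spred2 had positive estimates, with mixed signs over the pairs. The intervals of all of these included 0. Of the 28 ERK genes, 6 were lower in all 3 pairs and 3 higher, beside 12.7% and 13.7% of all genes.

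Besides Spry4, the ERK genes with an unadjusted p under 0.05 were Hmga2 and Phlda1. Hmga2, a chromatin protein that is also on the list of radial glia markers, stood at 1.59, 2.16 and 1.51 CPM in Ctl and 1.06, 1.19 and 1.11 in Epi, without overlap. Phlda1, an immediate target of growth factor signalling, stood at 8.41, 6.54 and 5.36 CPM in Ctl and 9.03, 9.42 and 6.55 in Epi. Their log2 fold changes were -0.64 ± 0.20 and 0.30 ± 0.14, in opposite directions. Myc, a growth regulator downstream of ERK, separated without overlap at 35.2, 36.4 and 35 CPM in Ctl and 41.3, 43.5 and 37.4 in Epi, but its interval of -0.05 to 0.44 included 0. The classical early genes Fos and Egr1 differed by less than their error: Fos had -0.14 ± 0.24 (-0.64 to 0.36) and Egr1 0.09 ± 0.24 (-0.42 to 0.60). Over all 28 immediate early genes, 1 stood higher and 2 lower at an unadjusted p under 0.05, with a median of -0.005. The list of 26 PI3K, AKT and mTOR genes held 1 such gene, Rictor, a core subunit of mTOR complex 2, at 77.5, 69.0 and 73.2 CPM in Ctl and 78.5, 85.2 and 87.7 in Epi (log2 fold change 0.19 ± 0.08).

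**Figure D3:**
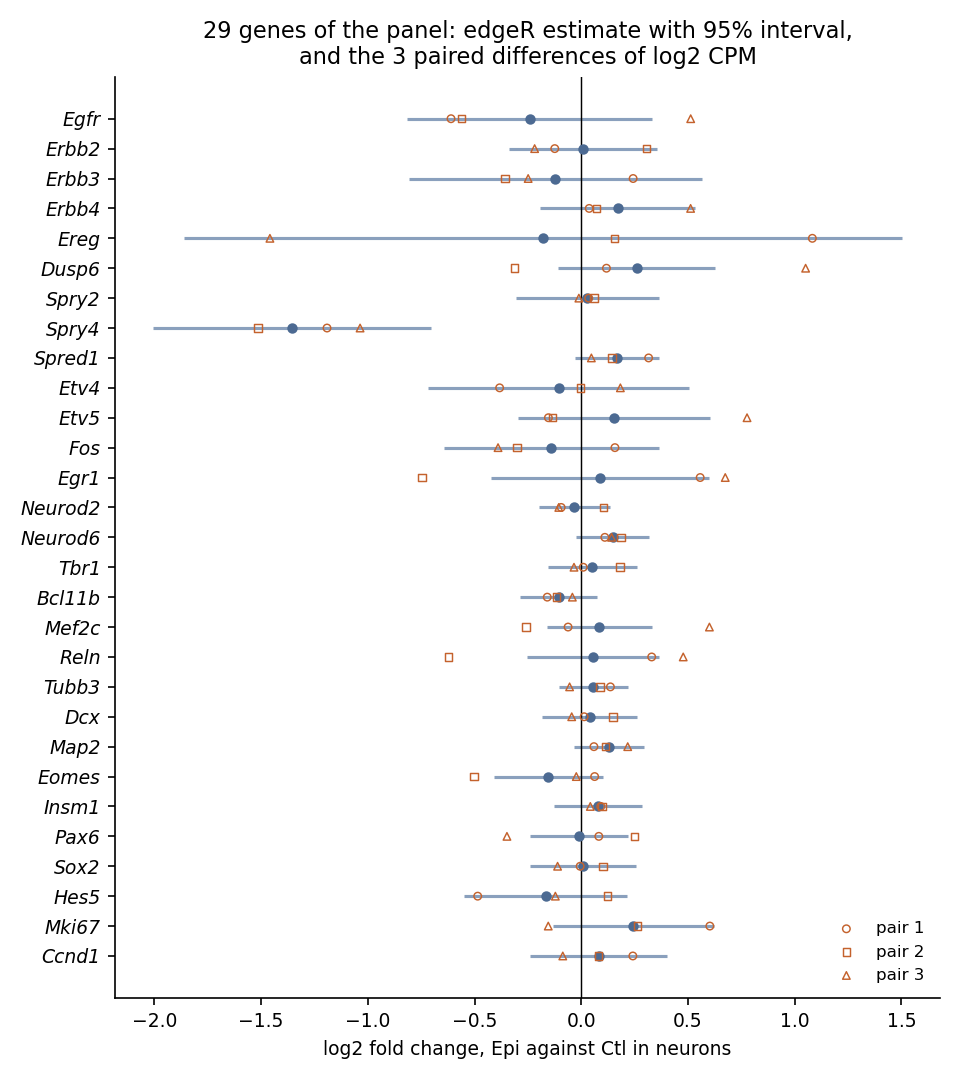
Log2 fold change, Epi against Ctl in neurons (x axis), for 29 genes of the panel (y axis); filled points are edgeR estimates with 95% intervals and open symbols the 3 paired differences of log2 CPM. The interval of Spry4 lies wholly below 0, from -2.01 to -0.70, and the intervals of the other 28 genes include 0.

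Genes of neuronal identity were abundant, and none was called. Neurod2, a transcription factor of differentiating glutamatergic neurons, stood at 2573, 2269 and 2119 CPM in Ctl and 2410, 2438 and 1970 in Epi, a log2 fold change of -0.03 ± 0.08 (-0.20 to 0.13). Tbr1, which specifies corticothalamic and other early neurons, stood at 251, 271 and 290 CPM in Ctl and 252, 307 and 283 in Epi, or 0.05 ± 0.10 (-0.16 to 0.26). Bcl11b (CTIP2), a factor of subcortically projecting neurons, was lower in all 3 pairs, at 1244, 1056 and 954 CPM in Ctl and 1114, 975 and 927 in Epi, by an amount within the spread (-0.11 ± 0.09, interval -0.29 to 0.08). Neurod6 had 0.15 ± 0.08 (-0.03 to 0.32), Tubb3 (neuronal beta-tubulin) 0.06 ± 0.08 (-0.11 to 0.22), Dcx (doublecortin, a microtubule protein of migrating neurons) 0.04 ± 0.11 (-0.18 to 0.26) and Map2 (a dendritic microtubule protein) 0.13 ± 0.08 (-0.03 to 0.29). All 7 intervals lay within a 1.5-fold change in either direction.

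The wider neuronal lists held few genes at an unadjusted p under 0.05, to be read against 1.79% higher and 2.22% lower of all genes. Of 26 neuron markers, 0 were called and 0 reached an unadjusted p under 0.05, with estimates from -0.31 to 0.18. Among 19 deep-layer and subplate genes 1 stood higher, Lmo3, a LIM-only transcriptional cofactor, at 43.5, 48.5 and 41.1 CPM in Ctl and 44.0, 56.0 and 52.2 in Epi. Among 20 upper-layer and callosal genes, 40 synaptic genes and 35 microtubule and cytoskeleton genes, 0 had an unadjusted p under 0.05, and the medians were 0.06, 0.04 and 0.03. Of 40 axon guidance receptors and ligands 2 stood higher, Robo3 and the semaphorin receptor Plxnc1, and of 30 ion channel genes 1, the calcium-activated potassium channel Kcnma1. Of 30 neuronal migration genes 1 stood higher and 1 lower: Nde1, a dynein regulator, had 0.47 ± 0.15 and Filip1, a regulator of filamin, -0.60 ± 0.22. Filip1 did not overlap between groups, at 4.30, 3.55 and 3.11 CPM in Ctl and 2.91, 1.86 and 2.48 in Epi.

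Mef2c and Reln, also on the panel, overlapped between treatments. Mef2c was low in the third pair of both groups, whereas Reln was highest in the second Ctl library, which the second Epi library did not share. Mef2c, an activity-regulated transcription factor, stood at 116, 120 and 45.3 CPM in Ctl and 111, 99.98 and 68.7 in Epi. Reln, the secreted signal of Cajal-Retzius cells, stood at 27.1, 40.6 and 18.7 CPM in Ctl and 34.1, 26.4 and 26.1 in Epi. In both genes the paired differences had mixed signs. The 8 Cajal-Retzius markers had 0 members at an unadjusted p under 0.05 and a median of 0.03.

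Progenitor and cell cycle transcripts gave no called gene. Their levels in the neuron isolate differed widely. Insm1 ran at 212 to 336 CPM in control neurons, above the 76.3 to 117 of control intermediate progenitors, while Eomes and Mki67 were low. Eomes stood at 6.45, 10.3 and 13.3 CPM in Ctl and 6.74, 7.25 and 13.1 in Epi (-0.15 ± 0.12). Insm1, a factor of basal progenitors and newborn neurons, had 0.08 ± 0.10, Pax6 -0.01 ± 0.11, Sox2 0.01 ± 0.12 and the Notch effector Hes5 -0.17 ± 0.18. Mki67, a marker of cycling cells, stood at 8.04, 8.87 and 9.77 CPM in Ctl and 12.2, 10.7 and 8.77 in Epi, or 0.24 ± 0.18 (-0.13 to 0.62), and Ccnd1, cyclin D1, had 0.08 ± 0.15. Of 60 mitosis genes 3 stood higher (Aurka, Smc2 and Ncapg) and 2 lower (Ect2 and Nuf2) at an unadjusted p under 0.05, beside 1.79% and 2.22% of all genes, and of 50 S phase genes 1 stood higher and 1 lower. The direction of the mitosis genes differed between pairs: 50 of the 60 genes were higher in Epi in pair 1, 24 in pair 2 and 22 in pair 3. Of 24 radial glia markers 1 stood higher and 1 lower, and of 26 Notch pathway genes likewise, with medians of -0.03 and -0.06.

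The 10 genes with the smallest unadjusted p, among those with an ordinary symbol and a mean level of 1 log2 CPM or more, are given because fewer than 10 genes were called. They are Hbb-bt, Cast, Hbb-bs, C1qtnf4, Hba-a2, Dusp10, Hba-a1, Gad1, Zswim7 and Tmem238, and none of them passed. In edgeR's quasi-likelihood test the first 3 of the 10 had an adjusted p of 0.831 and the other 7 of 1.00. With no filter on low counts, 6 of the 10 were among the 21 genes that this test called (Hbb-bt, Hbb-bs, Hba-a1, Hba-a2, C1qtnf4 and Cast, at adjusted p from 8.08e-12 to 0.0231). That setting also called Tcf7l2 (adjusted p 2.81e-09), Ttr, mt-Co2 and mt-Atp8, in each of which a single library stood apart. A call there thus does not show a difference shared by the pairs. Of the 10, 8 were lower with EPIREGULIN, and 4 of those 8 encode the adult haemoglobin chains of red blood cells.

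Hbb-bt and Hbb-bs, the adult beta globin genes, lie on chromosome 7 of GRCm39 (ENSMUSG00000073940, 103461731 to 103463203, and ENSMUSG00000052305, 103475741 to 103477303). Hba-a1 and Hba-a2, the adult alpha globin genes, lie on chromosome 11 (ENSMUSG00000069919, 32233511 to 32234465, and ENSMUSG00000069917, 32246489 to 32247298). The stretches of 120 bases before their RefSeq starts are shown because these genes stood lower together and because the copies are hard to tell apart by reads. Capitals mark the CCAAT box, the TATA-like run ATATAA and the motif CACCC, all searched on both strands. On GRCm39 the stretches lie at chr7:103477136-103477255 (Hbb-bs, minus strand), chr7:103463131-103463250 (Hbb-bt, minus strand) and chr11:32233552-32233671 (Hba-a1, plus strand), by exact match of the RefSeq promoter sequences, which were made on GRCm38.p6. In the deposited table the models of Hbb-bs, Hbb-bt and Hba-a1 begin upstream of the RefSeq starts, so these stretches overlap the counted genes.
Hbb-bs: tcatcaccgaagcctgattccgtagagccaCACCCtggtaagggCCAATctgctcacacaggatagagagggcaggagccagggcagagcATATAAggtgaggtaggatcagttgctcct
Hbb-bt: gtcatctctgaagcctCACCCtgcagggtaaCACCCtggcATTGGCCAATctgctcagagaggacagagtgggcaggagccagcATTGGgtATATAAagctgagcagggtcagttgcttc
Hba-a1: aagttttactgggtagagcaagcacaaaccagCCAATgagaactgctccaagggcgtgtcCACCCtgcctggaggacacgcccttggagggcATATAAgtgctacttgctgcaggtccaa
The Hba-a2 stretch is the same sequence over the 117 bases that align. All 4 stretches hold all 3 motifs, which 94 of 32851 RefSeq promoters do over the same 120 bases (0.286%). CCAAT alone is in 21.3%, ATATAA in 4.47% and CACCC in 31.7%. Only these 3 motifs were searched. The 4 stretches are also not independent, since those of Hbb-bs and Hbb-bt are themselves 77.1% identical where they align. The shares thus give only how common the motifs are, and enrichment in the globin genes was not tested. The spliced transcripts of Hba-a1 and Hba-a2 differ at 1 of 647 aligned bases, and those of Hbb-bs and Hbb-bt are 92.1% identical with a shared run of 430 bases, so the split of reads within each pair of copies is uncertain.

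Hbb-bt stood at 16.3, 11.3 and 12.7 CPM in Ctl and 9.69, 4.33 and 5.23 in Epi. Every Epi library lay below every Ctl library, and the log2 fold change was -1.12 ± 0.21 (-1.55 to -0.69), with an unadjusted p of 3.32e-05 in edgeR's quasi-likelihood test. It was the 1 gene that DESeq2 called, at an adjusted p of 0.0323. Hbb-bs stood at 35.6, 24.7 and 33.8 CPM in Ctl and 26.6, 10.8 and 10.2 in Epi, or -1.08 ± 0.21 (-1.53 to -0.64). Hba-a1 stood at 50.9, 22.1 and 35.4 CPM in Ctl and 42, 10.8 and 20.5 in Epi, or -0.68 ± 0.16 (-1.02 to -0.33). For both Hbb-bs and Hba-a1 the groups overlapped, while each Epi library was below the Ctl library of its own number. The pairs of Hba-a1 differed in level, with pair 1 high and pair 2 low. For Hbb-bs the first Epi library lay above the second Ctl library. Hba-a2 followed Hba-a1, at 36.3, 15.8 and 25.7 CPM in Ctl and 28.7, 8.23 and 12.3 in Epi, or -0.76 ± 0.17 (-1.12 to -0.40). All 4 estimates stayed below 0 over the settings tried but moved with the libraries. Without the block, the Hba-a1 estimate was -1.21 without the first Epi library, -0.21 without the second and -0.24 without the first Ctl library. Under the first 2 of these settings Hba-a2 had -1.34 and -0.34. The Hbb-bs estimate ran from -1.58 without the first Epi library to -0.75 without the third, both without the block, and that of Hbb-bt from -1.49 to -0.85.

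The other erythroid genes did not all go the same way. The embryonic globin Hba-x was lower in all 3 pairs, with an interval of -1.29 to 0.44, and Hbb-y and Hbb-bh1 had mixed signs. Hbb-y, the main embryonic beta globin here, stood at 63.7, 7.65 and 28.7 CPM in Ctl and 46.4, 8.58 and 22.1 in Epi. Alas2, which starts haem synthesis in erythroid cells, had -0.19 ± 0.22 (-0.66 to 0.28). Slc4a1, the anion exchanger of the red cell membrane, was higher without overlap, at 0.47, 0.39 and 0.26 CPM in Ctl and 0.97, 0.75 and 0.79 in Epi (1.18 ± 0.48, unadjusted p = 0.0217). Of 9 measured erythroid markers 1 thus stood higher and 4 lower at an unadjusted p under 0.05, beside 1.79% and 2.22% of all genes. Their summed level was 226, 87.1 and 148 CPM in Ctl and 171, 48.2 and 81.1 in Epi, lower in each pair, and 32.9 to 65.5 in control radial glia. In bulk RNA, fewer red cells in the isolate and less globin RNA per cell cannot be told apart.

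Cast encodes calpastatin, the inhibitor of calpain proteases (ENSMUSG00000021585, chromosome 13, 74840487 to 74956929). It stood at 3.93, 3.33 and 3.11 CPM in Ctl and 2.16, 1.46 and 1.48 in Epi, without overlap, a log2 fold change of -1.03 ± 0.20 (-1.45 to -0.60). C1qtnf4, a secreted protein of the complement C1q and TNF related family (ENSMUSG00000040794, chromosome 2, 90716204 to 90720869), was the best expressed of the 10. Its levels of 59.2, 64.6 and 51.8 CPM in Ctl and 42.6, 43.3 and 29.6 in Epi did not overlap, and its log2 fold change was -0.62 ± 0.14 (-0.91 to -0.33). With the neuron libraries alone in the edgeR fit and the replicate block kept, C1qtnf4 was the 1 gene called, at an adjusted p of 0.0450. Without the block it was not called in that fit.

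Dusp10, a phosphatase that acts on p38 and JNK (ENSMUSG00000039384, chromosome 1, 183745499 to 183807833), stood at 2.71, 3.38 and 3.33 CPM in Ctl and 1.5, 1.77 and 2.11 in Epi. Tmem238, a transmembrane protein (ENSMUSG00000030431, chromosome 7, 4787556 to 4792655), stood at 4.25, 7.65 and 6.35 CPM in Ctl and 3.26, 3.85 and 3.59 in Epi. Zswim7, a zinc finger protein of the SWIM type (ENSMUSG00000014243, chromosome 11, 62158050 to 62172201), stood at 3.51, 4.55 and 3.41 CPM in Ctl and 4.93, 7.25 and 5.54 in Epi. The groups did not overlap in any of these 3 genes. Their log2 fold changes were -0.81 ± 0.19 for Dusp10, -0.74 ± 0.20 for Tmem238 and 0.62 ± 0.16 for Zswim7, the last of which was higher.

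**Figure D4:**
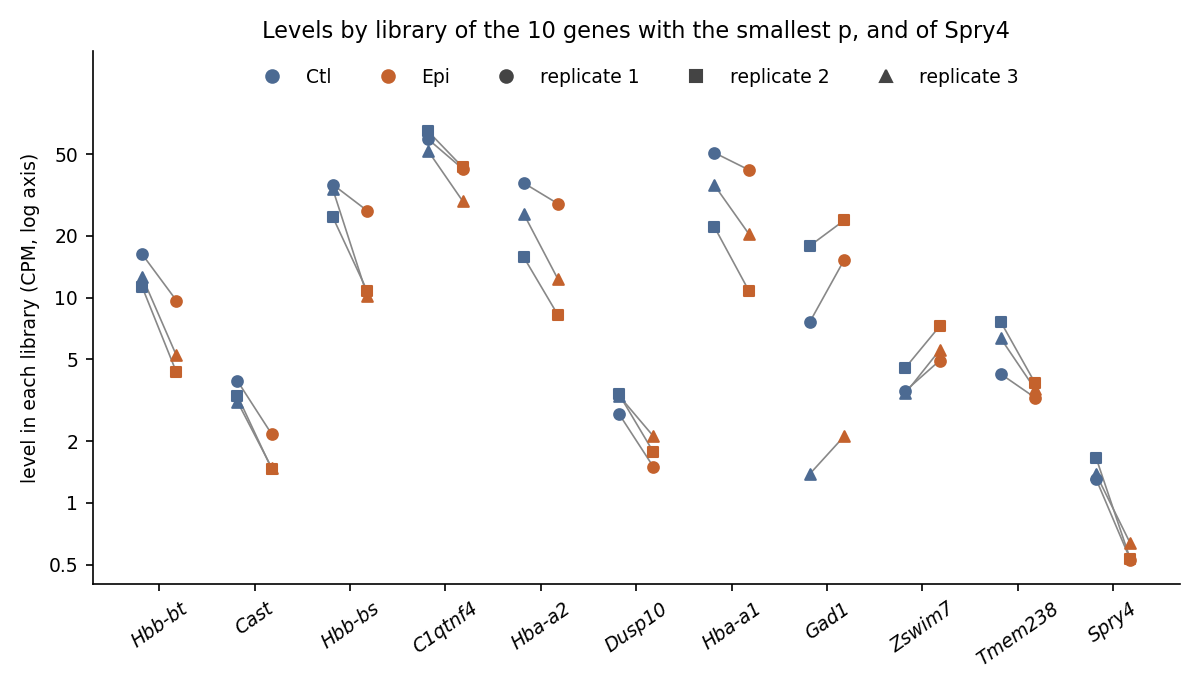
Level in CPM (y axis, log scale) of the 10 genes with the smallest p and of Spry4 in the 3 Ctl and 3 Epi neuron libraries, with lines joining libraries of the same replicate number. The lines slope down for 9 of the 11 genes and up for Gad1 and Zswim7, and for Gad1 the replicates are further apart (1.38 to 17.9 CPM in Ctl) than the ends of any line.

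Gad1, which makes the transmitter GABA (ENSMUSG00000070880, chromosome 2, 70383416 to 70432358), was higher in all 3 pairs, at 7.62, 17.9 and 1.38 CPM in Ctl and 15.3, 23.8 and 2.11 in Epi. Its log2 fold change was 0.68 ± 0.17 (0.33 to 1.03). The groups overlapped widely, because the second pair was high and the third low in both groups. Without the block and without the second Epi library the estimate was -0.025. The same order of replicates ran through most of the inhibitory neuron genes: the 16 interneuron markers summed to 102, 270 and 39.3 CPM in Ctl and 153, 266 and 43.4 in Epi. Exceptions included Dlx5 and Dlx6 in Epi and Sp9 in Ctl, which were highest in the first library. Sst, the neuropeptide somatostatin, stood at 6.17, 33.6 and 1.69 CPM in Ctl and 7.49, 37.5 and 2.22 in Epi, and Lhx6, a factor of neurons from the medial ganglionic eminence, at 6.03, 26.9 and 1.12 and 8.72, 19.9 and 1.64. Of the 12 interneuron markers whose mean reached 1 log2 CPM, 11 spanned more than 1 log2 unit between replicate numbers, against 2.52% of genes at that level.

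Within pairs these markers were less uniform. In pair 1, 14 of the 16 were higher in Epi, in pair 2, 6, and in pair 3, 10. At an unadjusted p under 0.05, 2 stood higher, Gad1 among them, and 1 lower (Nkx2-1, under 1 CPM throughout), beside 1.79% and 2.22% of all genes. The part of interneuron content in the Gad1 difference was not tested.

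**Figure D5:**
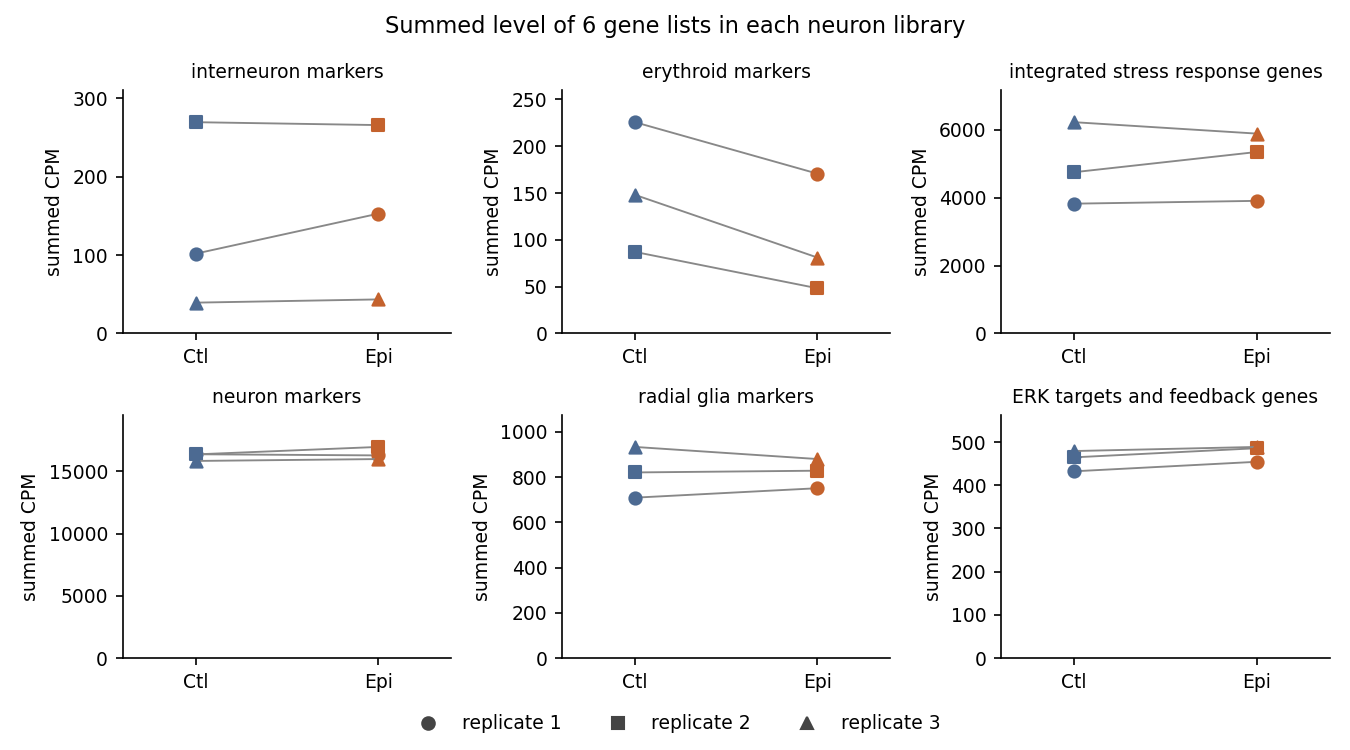
Summed CPM (y axes, from 0) of 6 gene lists in each Ctl and Epi neuron library, with a symbol for each replicate number and lines joining the pairs. Interneuron markers run from 39.3 to 270 CPM by replicate, erythroid markers are lower in Epi in each pair, and neuron markers stay between 15829 and 16954.

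The integrated stress response and the mitochondrially encoded genes also followed the replicate number, with 7 of 28 and 6 of 13 members above a mean of 1 spanning more than 1 log2 unit between numbers. Of the glycolysis and hypoxia genes 1 of 33 did, and of the nuclear oxidative phosphorylation, ribosomal protein, cholesterol synthesis, heat shock and p53 genes 0. The 30 integrated stress response genes summed to 3827, 4754 and 6229 CPM in Ctl and to 3910, 5350 and 5893 in Epi, high in the third pair and low in the first. Chac1, a glutathione-degrading target of ATF4, ran at 72.4, 117 and 188 CPM in Ctl and 77.6, 142 and 164 in Epi, and Psph, an enzyme of serine synthesis, at 62.9, 85.7 and 146 and 67.3, 94.8 and 142. Of these 30 genes, 0 stood higher and 1 lower at an unadjusted p under 0.05 between treatments. The mitochondrially encoded share of counts had the opposite order, at 8.83%, 7.06% and 5.57% in Ctl and 9.54%, 6.97% and 5.90% in Epi.

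Of the 13 mitochondrially encoded genes 12 estimates were positive, with a median of 0.16, and 2 stood higher at an unadjusted p under 0.05. These 2, mt-Atp8 and mt-Atp6, were high in the first Epi library and mixed in sign over the pairs: mt-Atp8 stood at 58.6, 58.0 and 42.3 CPM in Ctl and 153, 52.7 and 46.7 in Epi. The 75 ribosomal protein genes had a median of -0.04, with 54 higher in Epi in pair 1, 52 in pair 2 and 6 in pair 3. The 56 nuclear genes of oxidative phosphorylation had a median of -0.05, with 36 higher in pair 1, 19 in pair 2 and 10 in pair 3. Among the lists of glycolysis and hypoxia, cholesterol synthesis, heat shock, p53, interferon and apoptosis genes, 0 members were called, and at most 2 in either direction had an unadjusted p under 0.05.

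The neurons' response was also set against that of the other populations in the same fit. The difference between the effect in neurons and the effect in radial glia was called for 0 genes (0%) by edgeR's quasi-likelihood test, with 869 at an unadjusted p under 0.05 (2.96%). For intermediate progenitors it was called for 0 genes (0%), with 819 (2.79%). DESeq2 called 0 in both comparisons, with 530 and 520 at an unadjusted p under 0.05, and limma voom called 0, with 1107 and 875. The effect within radial glia and within intermediate progenitors was itself called for 0 genes, with 813 and 991 at an unadjusted p under 0.05.

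Among the 10 genes with the smallest p and the panel, Gad1, Spry4 and Hbb-bt differed from radial glia by more than 1 log2 unit before adjustment. The log2 fold change of Gad1 was 0.68 in neurons, -0.42 (-0.86 to 0.02) in radial glia and 0.25 (-0.07 to 0.57) in intermediate progenitors, and neurons minus radial glia gave 1.10 (0.54 to 1.66). In radial glia Gad1 stood at only 1.75 to 2.07 CPM in Ctl and 1.28 to 1.73 in Epi. Other interneuron markers beyond 1 log2 unit were Dlx2 (1.75), Dlx5 (1.09), Dlx1 (1.05) and Nkx2-1 (-2.28). Dlx2, Dlx5 and Dlx1 had -1.38, -1.05 and -0.59 in radial glia and 0.365, 0.04 and 0.45 in neurons. The part of interneuron content in these differences was not tested. Spry4 had -1.36 in neurons, 0.10 (-0.33 to 0.54) in radial glia and -0.36 (-0.88 to 0.15) in intermediate progenitors, a difference from radial glia of -1.46 (-2.24 to -0.67). For Hbb-bt the values were -1.12, -0.09 (-0.55 to 0.37) and -0.31 (-0.74 to 0.12), with a difference from radial glia of -1.03 (-1.66 to -0.40). Slc4a1, also an erythroid marker, had a difference from radial glia in the other direction, 1.46 (0.12 to 2.80). Neither Spry4 nor Gad1 nor Hbb-bt passed adjustment in either difference. Fos, which had -0.14 in neurons, had 0.40 (0.07 to 0.74) in radial glia, and the difference of -0.54 (-1.15 to 0.06) included 0.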

How the data were processed

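The deposited table holds the authors' raw read counts per gene, made per the submitters' processing notes with bcl2fastq 2.20.0, cutadapt 2.6 and featureCounts 2.0.1 on GRCm39, and no aligner is named there. Per the labels' protocols the libraries were SmartSeq2, which keeps neither strand nor molecular identifiers, so overlapping and antisense genes share reads. The 92 spike-in features were left out. Of 55416 genes, 29355 passed edgeR's filterByExpr over the 6 groups. All 18 libraries were fitted with edgeR 4.0.16 in R 4.3.3 (TMM scaling, quasi-likelihood test, Benjamini-Hochberg adjustment), with a mean per group and the replicate number as a block within each population. The numbers come from the sample titles. The comparison was set up to pair the neuron libraries by these numbers, and no label says that a number marks a shared litter or day. Deviations from the group means correlated at 0.198 to 0.678 in the 3 same-numbered pairs. Intervals are 95% Wald intervals. Values after ± are standard errors from this fit, not the spread of the 3 paired differences. Alternatives used DESeq2 1.42.0 and limma 3.58.1. Log2 CPM used a prior count of 2.

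Genes named are, per direction, the largest called changes (there were none), the 10 smallest p-values among genes with an ordinary symbol and a mean log2 CPM of at least 1, and a panel of 30 genes; some of these results are not reported here. Members of 41 gene lists with an unadjusted p under 0.05, or used as examples of a list, were named after their values were seen. The comparison, panel and lists were chosen with earlier results of these data known. The test was tried on simulated counts first. Sequences were handled with Biopython 1.88 and figures drawn with matplotlib 3.10.9.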

Additional observations from a re-analysis of the deposited data

How the results depend on the processing

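The count of 0 called genes in neurons held in edgeR under RLE and upper quartile scaling, a mean log2 CPM filter of 3, robust dispersion, a block shared by the populations and leaving out each replicate number (0 to 0 calls). It held in limma voom too. With no replicate block 0 genes were called, with 752 at an unadjusted p under 0.05. It moved to 1 gene in DESeq2 (Hbb-bt) and to 1 gene with the neuron libraries only and the replicate block (C1qtnf4). With no filter on low counts it moved to 21, among them Hbb-bt, Hbb-bs, Hba-a1, Hba-a2, C1qtnf4 and Cast, and the differences from radial glia and from intermediate progenitors moved to 21 and 12. Tcf7l2, Ttr, mt-Co2 and mt-Atp8, in each of which a single library stood apart, were called in neurons under that setting too. Members of the gene lists called were 8 with no filter and 1 in DESeq2. Genes with 1 direction in all 3 pairs numbered 7764, and 3259 with the filter at 3, where fewer genes are tested. Of the 11 named genes whose interval excluded 0, Gad1 reversed in 1 setting, to -0.025, with no replicate block and without Epi replicate 2. Of the 29 whose interval included 0, 23 took the other sign in some setting (69 of 574 values), such as Erbb4 (-0.56 to 0.87) and Dusp6 (-0.10 to 0.56). The cause of the other moves was not tested. Over all genes tested the median interval reached 0.55 log2 units either side of the estimate, and 0.25 for genes with a mean of 1 or more; the parts of depth and of the number of libraries in this were not tested.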

Other observations

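Single libraries stood apart from the other 5 by more than 1 log2 unit for 13 genes with an ordinary symbol and a level above 3 log2 CPM in at least 1 library. Tcf7l2, a transcriptional effector of Wnt signalling, stood at 53.2, 10.5 and 11.6 CPM in Ctl and 10.7, 10.2 and 11.2 in Epi, so its log2 fold change of -0.89 comes from the first pair, whose difference was -2.31 against -0.04 and -0.05 in the others. Ttr, the thyroid hormone carrier of choroid plexus, stood at 13.7 CPM in the third Ctl library and at most 1.41 in the other 5. Nin, a centrosomal protein, was low in the third Ctl library, at 63.4, 56.8 and 13.2 CPM in Ctl and 60.2, 37.5 and 33.7 in Epi. Beside mt-Atp8 and mt-Atp6, mt-Co2 was high in the first Epi library, at 390, 266 and 233 CPM in Ctl and 795, 304 and 221 in Epi.

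Gadd45b, a stress and activity-induced regulator, stood at 3.55, 2.83 and 2.16 CPM in Ctl and 2.11, 1.37 and 1.21 in Epi (log2 fold change -0.87), while Dusp1, an early phosphatase of the same activity list, stood at 60.4, 61.0 and 67.9 CPM in Ctl and 68.5, 70.6 and 76.7 in Epi (0.19), without overlap. Of 24 activity-dependent genes these were the 2 with an unadjusted p under 0.05, in opposite directions. Among 14 microglia and macrophage markers 11 estimates were negative, with a median of -0.35, and their summed level was 34.4, 31.0 and 24.6 CPM in Ctl and 41.4, 31.4 and 25.7 in Epi, so the median and the sum differ in sign.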
